A study of Mus musculus with 5 samples.

Results

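The BCL2 family and Apaf1 were followed in mouse ovarian granulosa cells, the somatic cells that line the ovarian follicle, after an ovulatory dose of human chorionic gonadotropin (hCG). The members were Bcl2, Bcl2l1, Mcl1, Bax, Bak1, Bcl2l11, Bid, Bad, Bbc3 and Apaf1, and every probe set of an Affymetrix 3' expression array was taken whose platform annotation names 1 of these 10 symbols alone. That gave 30 probe sets of 9 genes, out of 45101 probe sets on the array. Bax was not analysed here.

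Each of 5 groups had 1 array. The knockout (KO) was fl/fl for both CEBPα and CEBPβ and had a Cyp19-cre transgene, whose promoter directs the recombinase to granulosa cells, and was sampled at 4, 8 and 24 h of hCG. Wild type (WT) was sampled at 8 and 24 h. All animals had been primed for 48 h with eCG, an equine gonadotropin that makes follicles grow, and were aged 23 days (4 and 8 h) or 24 days (24 h). The labels give neither how many mice entered an array nor the alleles of the wild type.

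The intrinsic pathway of apoptosis is decided at the outer mitochondrial membrane. Guardians such as BCL2, BCL-XL (the product of Bcl2l1) and MCL1 hold the pore-forming effectors BAX and BAK in check, and BH3-only proteins such as BIM (Bcl2l11), BID, BAD and PUMA (Bbc3) release or activate those effectors. Cytochrome c set free by the pores binds APAF1, which assembles into the apoptosome and activates caspase-9. In the ovary, apoptosis of granulosa cells is the hallmark of follicular atresia, and gonadotropins are known as survival signals for these cells.

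Values are intensities on a linear scale, differences are on the log2 scale, and KO minus WT or 24 h minus 8 h gives their sign. With no replicates there is no test of a single comparison, so a rule of size was used: a difference passed when it was 2-fold or more and the higher intensity reached a floor of 22, the 40th percentile of all values. Of the 30 member probe sets, 24 reached that floor on at least 1 of the 4 arrays at 8 and 24 h, and 20 on all 4. The other 6, namely 2 of Bcl2, 2 of Bcl2l1, and 1 each of Bak1 and Bid, lay between 9 and 20 on those arrays and are given no fold. Different probe sets of 1 gene are measurements of the same RNA on the same arrays, so their agreement shows technical spread and not replication. Over all genes with several probe sets above the floor, that spread was 0.26 per probe set (SD on the log2 scale) for KO minus WT at 8 h and 0.39 at 24 h. For 24 h minus 8 h it was 0.37 in KO and 0.31 in WT. This spread leaves out variation between arrays and between mice, so a difference wider than it was not thereby tested.

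The arrays followed their labels. Cebpa was 19 in KO and 685 in WT at 8 h, at least 31.1-fold lower, and 38 in KO and 352 in WT at 24 h. Cebpb was 1127 in KO and 7436 in WT at 8 h, and 85 in KO and 3976 in WT at 24 h. The 4 arrays at 8 and 24 h had median intensities of 31 or 32. The KO array at 4 h had a median of 54, so it was not on their scale, and no difference between groups was taken from it. Its values did enter the floor, which would be 19 from the other 4 arrays alone. All 9 granulosa markers with a probe set were above the floor on all 5 arrays, and so were all 9 oocyte markers. Granulosa markers summed to 42993 in KO and 51965 in WT at 8 h, and to 61190 in KO and 69206 in WT at 24 h. Of these 9, 1 was lower in KO by the rule at 8 h, Fst (-1.10), and 0 passed at 24 h.

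Markers of several other cell types differed between the KO and WT arrays. Of 10 endothelial markers, all 10 were 2-fold or more lower in KO at 8 h, with a summed intensity of 494 in KO and 1715 in WT, and 3 of 9 at 24 h, with 474 in KO and 993 in WT. Stroma and smooth muscle markers had sums of 3278 in KO and 15602 in WT at 8 h, with 10 of 10 lower, and of 5351 in KO and 8817 in WT at 24 h, with 3 of 10 lower. Theca markers summed to 2277 in KO and 5285 in WT at 8 h, and to 8902 in KO and 2583 in WT at 24 h, with 3 of 4 lower at 8 h and 1 of 4 higher at 24 h. That 1 was Aldh1a1, with 8536 in KO and 2300 in WT at 24 h, and without it the theca sums were 455 in KO and 1674 in WT at 8 h and 366 in KO and 283 in WT at 24 h. Leukocyte markers summed to 779 in KO and 1242 in WT at 8 h, and to 1050 in KO and 1757 in WT at 24 h, with 4 of 10 and 3 of 10 lower and 1 of 10 higher at 8 h. Oocyte markers summed to 4541 in KO and 5159 in WT at 8 h, and to 4464 in KO and 3898 in WT at 24 h, and none of 9 passed the rule at either time. Of 3 erythroid markers above the floor, 1 was lower at 8 h and none passed at 24 h. The part of these cells in the differences of BCL2 family genes was not tested. In bulk RNA, fewer cells of a type and less RNA per cell cannot be told apart.

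Bid, Apaf1 and Bcl2l11 carried most of the results that follow, and the 250 bases upstream of their RefSeq transcription starts (build GRCm38.p6) are shown for that reason. Promoters were searched for a C/EBP-type motif spelled TTGCNNAA, or TTNNGCAA when read from the other strand, and matches are in capitals. The Bid sequence is chr6:120916825-120917074 on the minus strand, the Apaf1 sequence chr10:91082744-91082993 on the minus strand, and the Bcl2l11 sequence chr2:128125788-128126037 on the plus strand, upstream of the first of its 2 listed starts.
Bid: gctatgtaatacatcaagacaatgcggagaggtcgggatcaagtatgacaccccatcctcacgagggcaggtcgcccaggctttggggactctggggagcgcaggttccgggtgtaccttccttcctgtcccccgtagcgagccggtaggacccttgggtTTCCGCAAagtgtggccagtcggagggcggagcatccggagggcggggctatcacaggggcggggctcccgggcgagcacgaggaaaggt
Apaf1: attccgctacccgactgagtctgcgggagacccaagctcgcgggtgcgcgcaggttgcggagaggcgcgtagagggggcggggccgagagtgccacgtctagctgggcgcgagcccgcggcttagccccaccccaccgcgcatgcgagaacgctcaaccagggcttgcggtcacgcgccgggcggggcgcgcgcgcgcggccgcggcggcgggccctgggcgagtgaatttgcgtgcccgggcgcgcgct
Bcl2l11: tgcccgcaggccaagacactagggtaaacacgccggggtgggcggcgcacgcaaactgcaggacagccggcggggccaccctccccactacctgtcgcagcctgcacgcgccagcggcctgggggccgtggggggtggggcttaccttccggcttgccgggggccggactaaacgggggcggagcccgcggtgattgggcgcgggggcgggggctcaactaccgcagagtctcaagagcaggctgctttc

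All 9 member genes matched the RefSeq table, with 15 promoters between them. Bid alone held a match, 1 of 15 promoters or 6.67%, while 9.56% of the 32851 promoters of the table held one in a window of the same length. The match in Bid, TTCCGCAA, began 90 bases before the start and ended 83 bases before it. Members' promoters had a median GC content of 64.8%, against 52.4% over the table. A match is a description of letters and not a binding site.

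**Figure D1:**
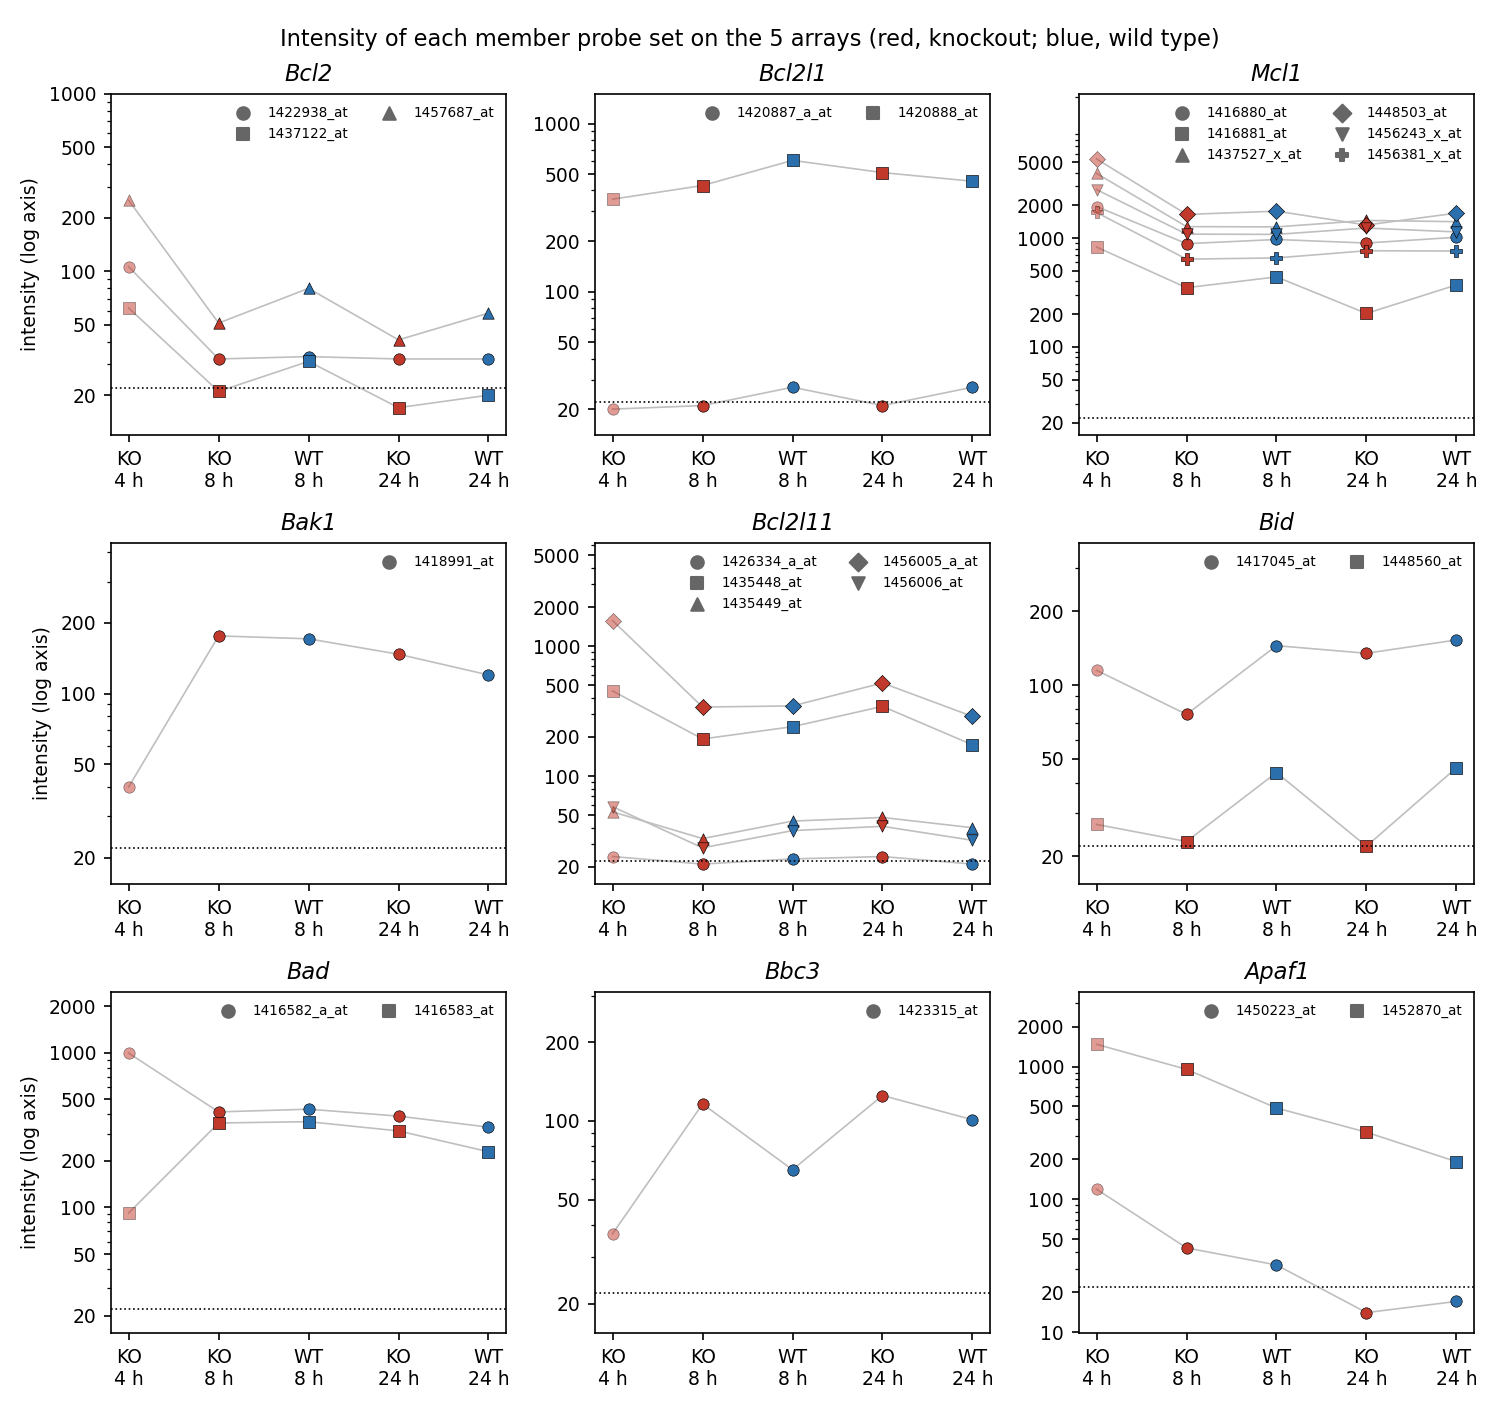
Intensity (log axis) of the 24 member probe sets that reached the floor at 8 or 24 h, 1 panel a gene, on the 5 arrays in order of time with KO (red) left of WT (blue). Grey lines join the values of 1 probe set, the dotted line is the floor of 22, and the paler KO array at 4 h is on another scale; Apaf1 was lower at 24 h than at 8 h in both genotypes, and at 8 and 24 h Bid 1448560_at lay at 22 or 23 in KO and at 44 or 46 in WT.

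No probe set of the 3 guardian genes passed the rule between genotypes, and the widest were Mcl1 1416881_at at 24 h and Bcl2 1457687_at at 8 h, both lower in KO by more than the probe set spread. Mcl1, an anti-apoptotic protein of short half-life, was read by 6 probe sets, all above the floor on every array. Its probe set 1448503_at had 1653 in KO and 1772 in WT at 8 h, and 1321 in KO and 1700 in WT at 24 h, differences of -0.10 and -0.36. Probe set 1416881_at had 350 in KO and 440 in WT at 8 h, and 203 in KO and 371 in WT at 24 h, differences of -0.33 and -0.87. The KO array was the lower of each pair in both. By contrast, the 3 probe sets with the less specific suffix _x_at, which marks probes that can pair with other transcripts, differed by -0.04 to 0.01 at 8 h and by 0.01 to 0.12 at 24 h. Probe set 1416880_at differed by -0.13 at 8 h and -0.18 at 24 h. The probe sets of Mcl1 thus disagreed at 24 h, from -0.87 to 0.12, and none passed the rule.

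Bcl2, the founding member, was near the floor. Probe set 1457687_at had 51 in KO and 80 in WT at 8 h, and 41 in KO and 58 in WT at 24 h, differences of -0.65 and -0.50. Probe set 1437122_at had 21 in KO and 31 in WT at 8 h, at least 1.41-fold lower, and was under the floor in both genotypes at 24 h, with 17 in KO and 20 in WT. The third, 1422938_at, had 32 on both KO arrays and 33 and 32 on the WT arrays at 8 and 24 h. KO was below WT at 8 h in 3 of 3 probe sets, and by more than the probe set spread of 0.26 in 2 of them, but under 2-fold in each.

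Bcl2l1, the gene of BCL-XL, had 1 well-measured probe set. That probe set, 1420888_at, read 428 in KO and 604 in WT at 8 h, a difference of -0.50, and 511 in KO and 454 in WT at 24 h, a difference of 0.17. A second, 1420887_a_at, read 21 in KO and 27 in WT at both times, at least 1.23-fold lower. At 24 h the 2 probe sets went opposite ways, each by less than the spread of 0.39.

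Bak1 encodes BAK, an effector that permeabilizes the outer mitochondrial membrane. Its probe set 1418991_at had 176 in KO and 171 in WT at 8 h, and 147 in KO and 120 in WT at 24 h. The differences, 0.04 and 0.29, were both inside the probe set spread.

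Among the BH3-only genes, Bid was lower in KO. BID links death receptors to mitochondria when caspase-8 cleaves it. Probe set 1448560_at had 23 in KO and 44 in WT at 8 h, a 1.91-fold difference (-0.94), and 22 in KO and 46 in WT at 24 h, a 2.09-fold difference (-1.06) that passed the rule. Probe set 1417045_at had 76 in KO and 145 in WT at 8 h (-0.93), and 135 in KO and 153 in WT at 24 h (-0.18). Both probe sets agreed at 8 h, just inside the 2-fold limit. At 24 h they did not agree, and the one that passed read the KO array at the floor itself.

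Bcl2l11 encodes BIM, a potent BH3-only activator, and had 5 probe sets above the floor on at least 1 array. Probe set 1456005_a_at read 340 in KO and 347 in WT at 8 h, and 521 in KO and 288 in WT at 24 h. Probe set 1435448_at read 193 in KO and 240 in WT at 8 h, and 344 in KO and 174 in WT at 24 h. At 24 h both lay above WT, 1.81-fold and 1.98-fold, the second just short of the rule. Of the dimmer ones, 1435449_at read 33 in KO and 45 in WT at 8 h, and 48 in KO and 40 in WT at 24 h. Probe set 1456006_at read 28 in KO and 38 in WT at 8 h, and 41 in KO and 32 in WT at 24 h, and 1426334_a_at stayed between 21 and 24. The 4 other than 1426334_a_at, which lay at the floor, were below WT at 8 h, by -0.03 to -0.45, and above it at 24 h, by 0.26 to 0.98. At 8 h 1456005_a_at was inside the probe set spread of 0.26. At 24 h 1435449_at and 1456006_at were inside that of 0.39. After quantile normalization 1456005_a_at stood at 0.01 at 8 h in place of -0.03.

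Bbc3 encodes PUMA, a BH3-only protein known as a p53 target, and had a single probe set, 1423315_at. It had 116 in KO and 65 in WT at 8 h, 1.78-fold higher (0.84), and 125 in KO and 101 in WT at 24 h (0.31). Only the difference at 8 h exceeded the probe set spread, and neither reached 2-fold. Bad, whose product is silenced when survival kinases phosphorylate it, had 414 in KO and 431 in WT at 8 h and 389 in KO and 330 in WT at 24 h on 1416582_a_at. Its probe set 1416583_at had 351 in KO and 358 in WT at 8 h, and 312 in KO and 229 in WT at 24 h. Bad was thus within 0.06 of WT at 8 h on both, and 0.24 and 0.45 above it at 24 h.

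Apaf1 was higher in KO on its bright probe set. Probe set 1452870_at had 952 in KO and 487 in WT at 8 h, 1.95-fold higher (0.97), and 320 in KO and 192 in WT at 24 h, 1.67-fold higher (0.74). Probe set 1450223_at had 43 in KO and 32 in WT at 8 h (0.43), and 14 in KO and 17 in WT at 24 h, both under the floor. The 2 probe sets had the same direction at 8 h, and at 24 h only the bright one measured the gene.

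**Figure D2:**
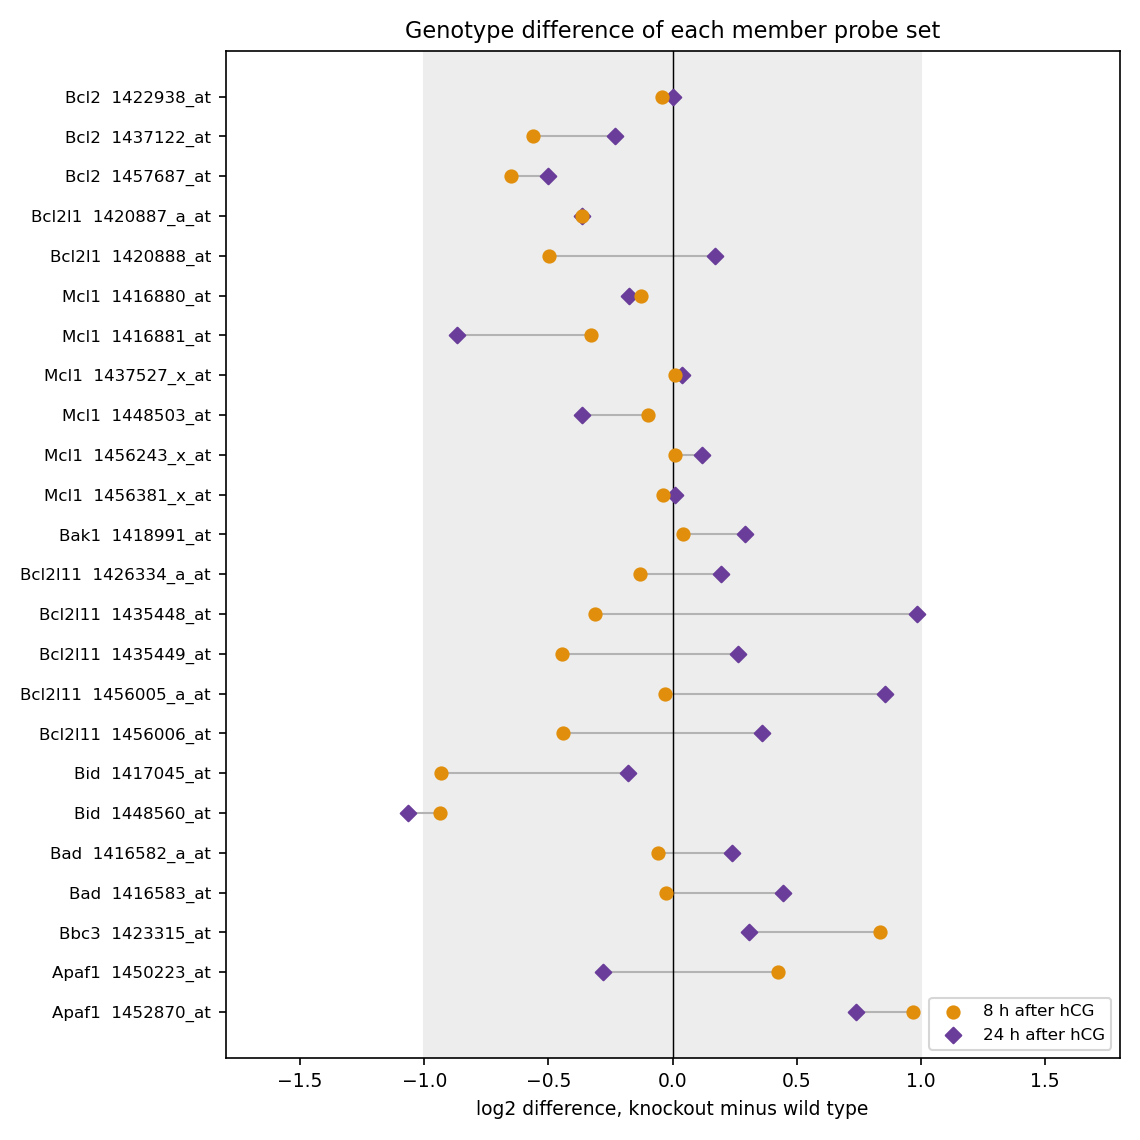
Log2 difference between KO and WT of the 24 member probe sets at 8 h (circles) and at 24 h (diamonds), with grey lines joining both times and shading from -1 to 1, the range within 2-fold. Bid 1448560_at at 24 h (-1.06) is the single point outside the shading, and the 4 Bcl2l11 probe sets above the floor on all arrays at 8 and 24 h lie left of 0 at 8 h and right of 0 at 24 h.

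Counted together, 0 of 24 member probe sets passed the rule between genotypes at 8 h, where 5.18% of 26472 probe sets passed, and the members' median difference was -0.11 against 0.00 over all. At 24 h, 1 of 22 passed, Bid 1448560_at, where 7.88% of 26730 passed, with a median of 0.15 against 0.05. A count of 0 or 1 among so few is near these shares. The nearest to the rule at 8 h were Apaf1 1452870_at (0.97) and both Bid probe sets, and 5.41% of all probe sets differed by as much as Apaf1. At a limit of 1.5-fold, which 13.5% of all probe sets passed at 8 h and 23.3% at 24 h, 5 members passed at 8 h, namely the nearest 3 with Bcl2 1457687_at and Bbc3, and 5 at 24 h, namely Mcl1 1416881_at and Bid 1448560_at below WT and Apaf1 1452870_at with the 2 bright Bcl2l11 probe sets above.

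The genotype effect averaged over 8 and 24 h was fitted with limma on 4 arrays, with time as a term. The fit leaves 1 degree of freedom, which is the genotype by time interaction, so its errors are not replicate errors. No probe set of 27598 reached an adjusted p of 0.05, a share of 0%, while 3222 had an unadjusted p under 0.05, 11.7% of all. Among the 24 members 3 had such a p, 12.5%, namely Bid 1448560_at at -1.0 ± 0.18 (SE), Apaf1 1452870_at at 0.85 ± 0.17 and Bcl2 1457687_at at -0.57 ± 0.17. Their limma adjusted p-values were 0.363, 0.374 and 0.418. KO was below WT on both pairs of arrays for Bid and Bcl2, and above it on both for Apaf1.

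From 8 to 24 h of hCG, Apaf1 was the member that passed the rule, and it was lower at 24 h in both genotypes. Probe set 1452870_at was 320 at 24 h and 952 at 8 h in KO, 2.98-fold lower (-1.57), and 192 at 24 h and 487 at 8 h in WT, 2.54-fold lower (-1.34). Probe set 1450223_at was 14 at 24 h and 43 at 8 h in KO, at least 1.95-fold lower, and 17 at 24 h and 32 at 8 h in WT, at least 1.45-fold lower. Its KO value passed the rule as measured (-1.62) but missed it when values below 22 were set to 22 (-0.97). Theca, stroma and endothelial markers were lower at 24 h in WT, with 3 of 4, 5 of 10 and 3 of 10 past the rule, while in KO 1 of 7 endothelial markers was lower and 1 of 4 theca and 3 of 10 stroma markers were higher. Their part in the difference of Apaf1 was not tested.

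In all, 2 of 22 member probe sets passed in KO, where 11.2% of 26720 passed, and 1 of 24 in WT, where 11.2% of 26719 passed. All 3 were Apaf1. The members' median time change was 0.06 in KO, against 0.04 over all probe sets, and -0.21 in WT, against 0.00. In the limma fit of the time effect over both genotypes, 133 of 27598 probe sets had an adjusted p under 0.05, 0.482% of all, and none of the 24 members did. Apaf1 1452870_at was the nearest, at -1.46 ± 0.17 (SE) with a limma adjusted p of 0.0703. It passed at 0.0498 after quantile normalization, where 2.06% of all probe sets passed. With the floor at the 60th percentile it passed at 0.0319, where 5.34% of all did. No member passed without a trend or with no floor, where the smallest adjusted p of a member was 0.0823 and 0.294.

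Other members moved less than 2-fold with time. Bcl2l11 1435448_at was 344 at 24 h and 193 at 8 h in KO (0.83), and 174 at 24 h and 240 at 8 h in WT (-0.46). Bid 1417045_at was 135 at 24 h and 76 at 8 h in KO (0.83), and 153 at 24 h and 145 at 8 h in WT (0.08). Mcl1 1416881_at was 203 at 24 h and 350 at 8 h in KO (-0.79), and 371 at 24 h and 440 at 8 h in WT (-0.25). These 3 had the widest time differences in KO outside Apaf1. In WT the widest outside Apaf1 were Bad 1416583_at, 229 at 24 h and 358 at 8 h (-0.65), Bbc3, 101 at 24 h and 65 at 8 h (0.64), and Bak1 1418991_at, 120 at 24 h and 171 at 8 h (-0.51). Bcl2 1437122_at, with 20 at 24 h and 31 at 8 h in WT, has only a bound there, at least 1.41-fold lower.

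**Figure D3:**
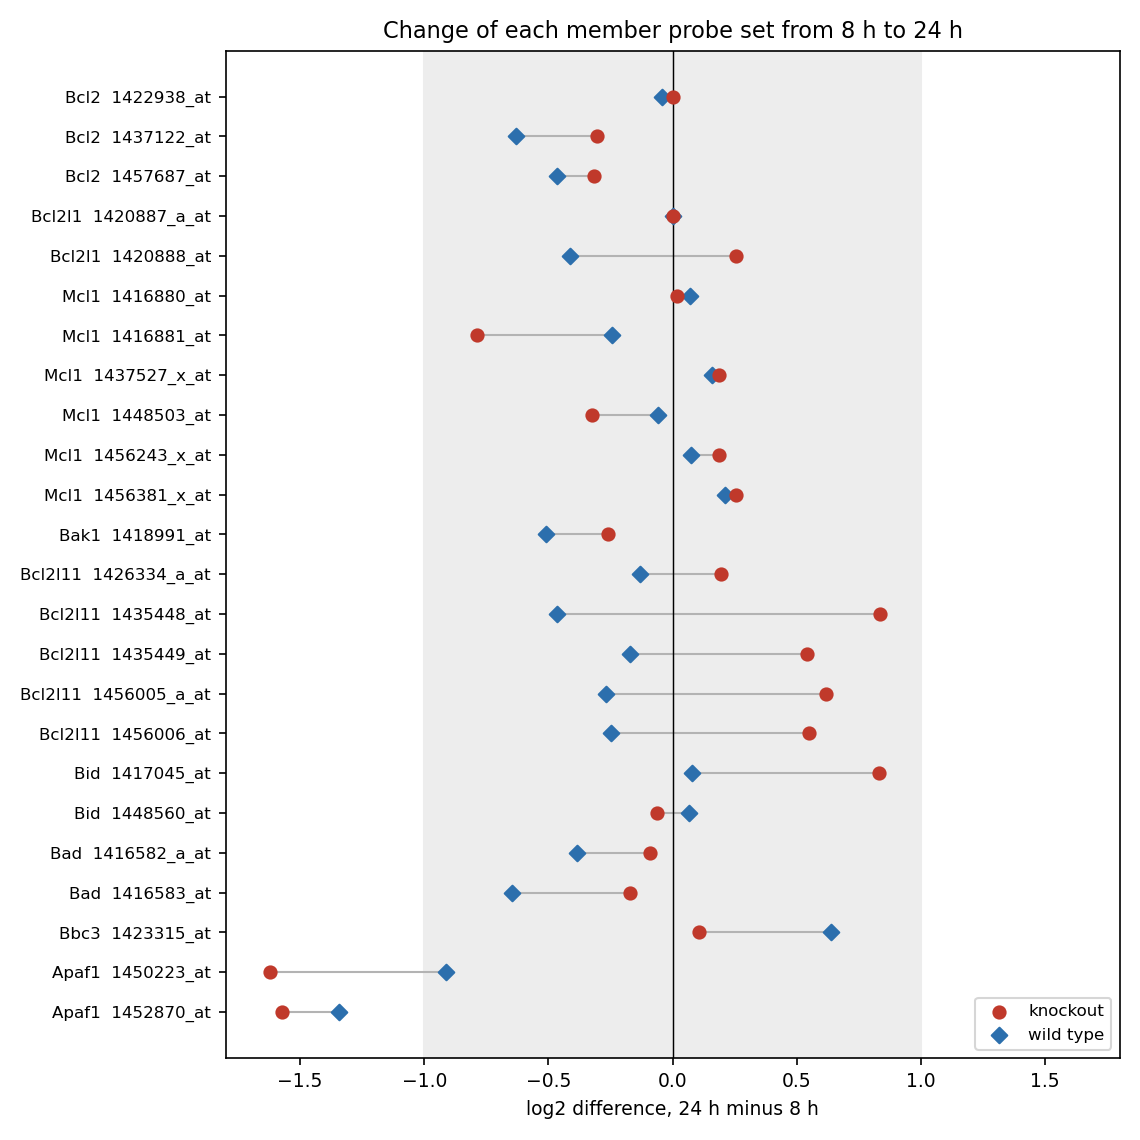
Log2 difference between 24 h and 8 h of the 24 member probe sets in KO (red circles) and WT (blue diamonds), with shading from -1 to 1. Both Apaf1 probe sets lie far left in both genotypes, between -1.62 and -0.91, where 1450223_at rests on values under the floor at 24 h, and the 4 Bcl2l11 probe sets other than 1426334_a_at, which lay at the floor, are right of 0 in KO and left of 0 in WT.

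Whether the genotype difference itself changed between the times was read from the difference of the differences, 24 h minus 8 h, which has no test here. Bcl2l11 1435448_at had the widest value of the members, 1.30, and was the 1 of 24 that passed, where 8.06% of 27598 probe sets did. The other Bcl2l11 probe sets followed at 0.89 (1456005_a_at), 0.80 (1456006_at) and 0.71 (1435449_at), leaving out 1426334_a_at at the floor. Probe sets 1435448_at and 1435449_at come from 1 sequence accession, and 1456005_a_at and 1456006_at from another. Bid 1417045_at had 0.75 while its second probe set 1448560_at had -0.13. Bcl2l1 1420888_at had 0.67, and Apaf1 1452870_at had -0.23. Apaf1 1450223_at had -0.71 as measured, a value that rests on intensities under the floor in both genotypes at 24 h.

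**Figure D4:**
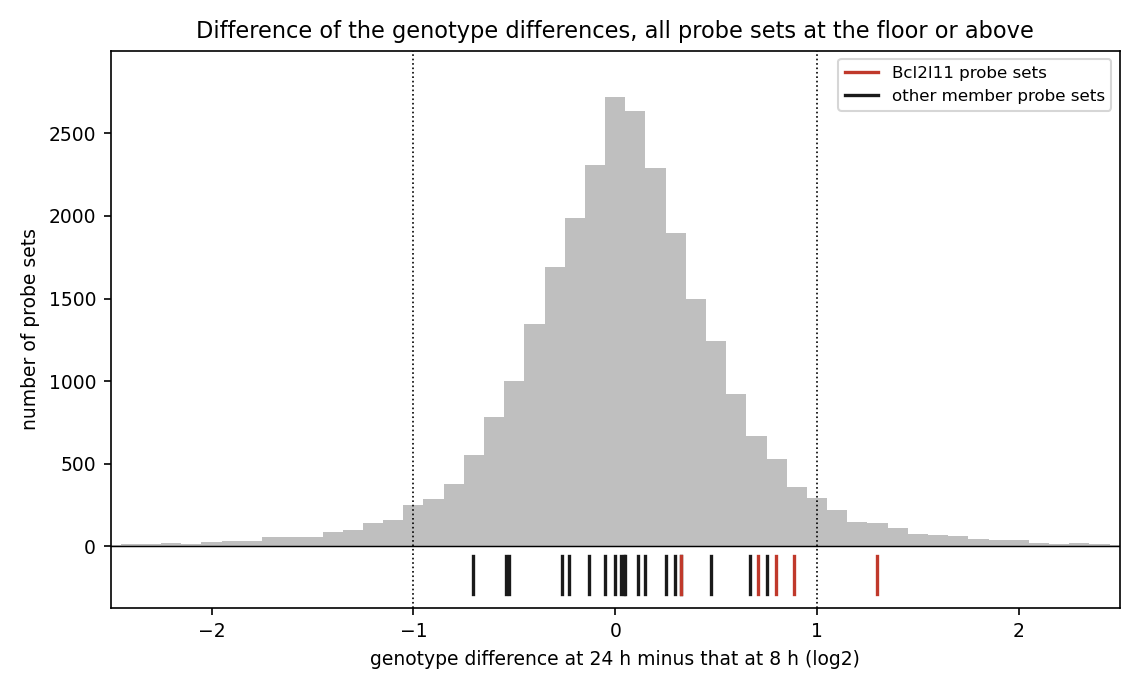
Histogram of the difference of the genotype differences (log2, 24 h minus 8 h) over 27598 probe sets that reached the floor, with ticks below for the 24 member probe sets and dotted lines at -1 and 1. The Bcl2l11 ticks (red) run from 0.32 to 1.30 and the remaining ticks (black) from -0.71 to 0.75, with Bcl2l11 1426334_a_at at 0.32 and Apaf1 1450223_at at -0.71 resting in part on values under the floor.

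On the KO array at 4 h, 27 of the 30 member probe sets were at or above 22, as were 74.6% of all probe sets. That share was 56.8% to 57.3% on the arrays at 8 and 24 h, which are on another scale. Apaf1 1452870_at was 1470, at percentile 92.3 of that array, and Bcl2l11 1456005_a_at 1573, at percentile 92.7. Mcl1 ran from 828 to 5355 over its 6 probe sets. Bak1 1418991_at was 40, at percentile 44.0, Bbc3 1423315_at was 37, at percentile 42.2, and Bcl2 1457687_at was 251, at percentile 73.4. Bad was 993 on 1416582_a_at (percentile 89.2) and 92 on 1416583_at (percentile 59.2).

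Other genes of the pathway were taken from lists chosen for their role, each gene read by its probe set of highest mean. Over all genes read this way, 5.67% passed the rule between genotypes at 8 h, 7.1% at 24 h, 12.2% between times in KO and 12.1% in WT. Of 17 other BCL2 family genes, 12 had a probe set of their own and 10 reached the floor. Bmf, a BH3-only gene, stood out among them on 1454880_s_at. It had 636 in KO and 246 in WT at 24 h, 2.59-fold higher (1.37), and 63 in KO and 113 in WT at 8 h (-0.84). At 24 h it was above its level at 8 h by 10.1-fold in KO (3.34) and 2.18-fold in WT (1.12), a difference of 2.21. Its order of genotypes is that of Bcl2l11 1435448_at at each time, with KO below WT at 8 h and above it at 24 h. In WT the 2 went opposite ways with time, Bmf higher at 24 h (1.12) and Bcl2l11 1435448_at lower (-0.46). The suffix _s_at marks probes shared by several transcripts, and the 2 further Bmf probe sets, 1422995_at and 1458325_x_at, stayed under the floor at 8 and 24 h.

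Bok, the BCL2-related ovarian killer and an effector of the BAX type, was lower at 24 h than at 8 h in both genotypes. Its probe set 1417040_a_at was 618 at 24 h and 1636 at 8 h in KO, 2.65-fold lower (-1.40), and 486 at 24 h and 1109 at 8 h in WT, 2.28-fold lower (-1.19). KO lay 0.56 above WT at 8 h and 0.35 above it at 24 h. Bok thus had the same direction as Apaf1 1452870_at in each of these comparisons. Bnip3, a BH3-like gene of mitophagy that hypoxia induces, was lower in KO, with 1504 in KO and 3018 in WT at 8 h (-1.01) and 2813 in KO and 6101 in WT at 24 h (-1.12). Its call at 8 h was lost after quantile normalization, at -0.99. It was higher at 24 h than at 8 h, by 0.90 in KO and by 1.01 in WT, where it passed. Over this list, 1 gene was lower and 0 higher at 8 h, and 1 higher and 1 lower at 24 h, around medians of 0.15 and 0.11. With time, 1 was higher and 1 lower in KO, and 2 were higher and 1 lower in WT, with medians of 0.11 and 0.28.

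Downstream of the mitochondria little differed. Of 18 genes of the apoptosome, caspases and their inhibitors, 0 passed between genotypes at either time, with medians of 0.00 at 8 h and 0.03 at 24 h. The widest were Htra2, a mitochondrial protease that blocks caspase inhibitors, with 224 in KO and 399 in WT at 8 h (-0.83) and 216 in KO and 376 in WT at 24 h (-0.80), and Casp9, the caspase that APAF1 activates, with 221 in KO and 139 in WT at 24 h (0.67). Xiap, a caspase inhibitor, came next at 8 h (0.34). Aifm1, the apoptosis inducing factor, was 2414 at 24 h and 1207 at 8 h in WT (1.0, at the limit itself), and 1845 at 24 h and 1100 at 8 h in KO (0.75). No other gene of this list passed with time, and in KO Birc5, the gene of survivin, was next to Aifm1 (-0.68). Among 4 death receptor genes above the floor none passed in any comparison, with Tnfrsf1a, the TNF receptor, the widest between genotypes at 8 h (-0.61) and Cflar, the gene of the caspase-8 inhibitor FLIP, at 24 h (0.44). With time Cflar was the widest of them in WT (-0.78) and Fadd, an adaptor of death receptors, in KO (-0.46).

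Of 13 listed regulators of the members, 12 had a probe set of their own, and Trp53, the gene of p53, did not. Of these 12, 0 passed between genotypes at 8 h and 2 were higher in KO at 24 h. Cdkn1a, a cell cycle inhibitor, had 1844 in KO and 802 in WT at 24 h on 1424638_at (1.20), and 1865 in KO and 1036 in WT at 8 h (0.85). Kitl (0.62) was next to it at 8 h. The second Cdkn1a probe set, 1421679_a_at, did not pass, with 852 in KO and 442 in WT at 24 h (0.95). Kitl, a ligand through which granulosa cells act on the oocyte, had 3139 in KO and 1281 in WT at 24 h on 1415855_at (1.29), while its probe sets 1448117_at and 1426152_a_at differed by 0.09 and -0.47. Foxo1 and Foxo3, forkhead factors known to activate BIM in several cell types, lay 0.90 and 0.54 above WT at 24 h, short of the rule. At 8 h they went opposite ways. Foxo1 lay 0.22 above WT, with 1577 in KO and 1353 in WT, and Foxo3 lay 0.50 below it, with 477 in KO and 673 in WT. A link between these genes and Bcl2l11 was not tested. The median of the regulators was 0.10 at 8 h and 0.34 at 24 h, against -0.01 and 0.06 over all genes. With time, Ywhaz, a 14-3-3 protein that binds BAD, was 2074 at 24 h and 7091 at 8 h in KO (-1.77), and 2792 at 24 h and 6826 at 8 h in WT (-1.29). Its 7 probe sets ran from -2.18 to 0.54 in KO and from -1.44 to 0.04 in WT. Kitl was higher at 24 h in KO, with 3139 at 24 h and 1445 at 8 h on 1415855_at (1.12), while 1448117_at and 1426152_a_at differed by 0.13 and -0.47 between the times.

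**Figure D5:**
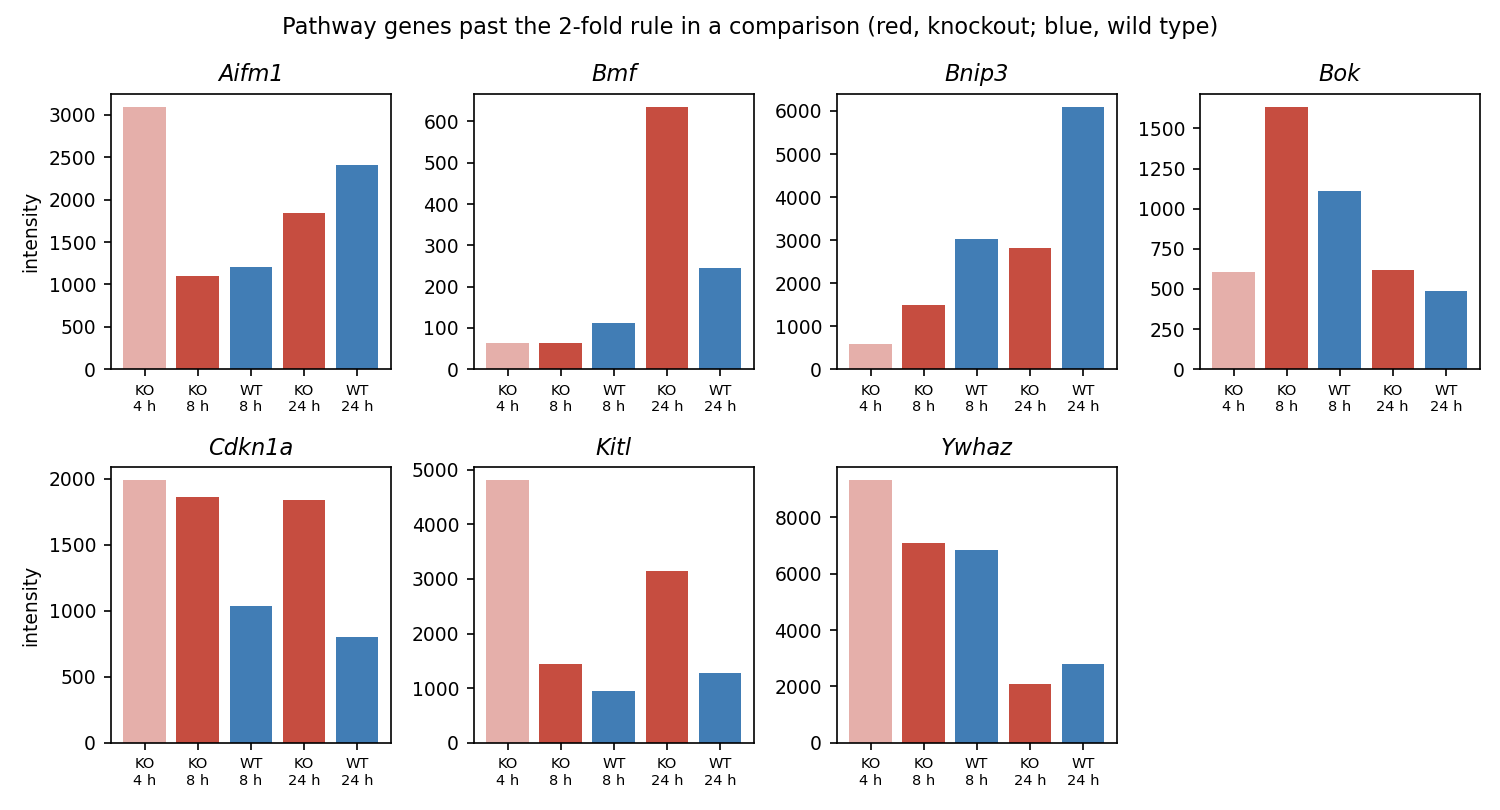
Intensity (linear axis from 0) of the 7 genes outside the members that passed the 2-fold rule in a comparison, each by its probe set of highest mean, on the 5 arrays with KO (red) left of WT (blue) and the KO array at 4 h paler. Bmf was 636 in KO and 246 in WT at 24 h, and Bok was lower at 24 h than at 8 h in both genotypes.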

How the data were processed

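Affymetrix 3' arrays measured total RNA of granulosa cells, 5 arrays in 5 groups. The authors deposited intensities, for which affy and RMA (no version) are named in the submitters' processing notes. These are linear whole numbers, log2 was taken of them here, and rounding makes differences coarse near the floor. The normalization of the array at 4 h relative to the others is not stated.

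Gene names came from GEO's platform table, brought up to date by Entrez identifier from RefSeq (GRCm38.p6). Of 45101 probe sets, 34958 had 1 symbol, 932 had several and 9211 had none. Shares over all probe sets leave out 64 controls, and shares over genes use the probe set of highest mean over the 5 arrays (18193 genes). Groups were taken from sample titles. Comparisons were those of genotype at each time and of time in each genotype, with the 2-fold rule and, for averaged effects, limma 3.58.1 in R 4.3.3 (lmFit, eBayes with a trend, Benjamini-Hochberg). Both were tested on simulated data. Alternatives were other folds and floors, 2 scalings, probe set choice and the variance model. Named genes were all members, and those of the pathway lists past the rule or, where none passed, the 2 widest; others given with values, such as Foxo1 and Foxo3, were chosen after their values were seen. The members and lists were chosen with earlier results of these data known. The number of arrays limits the precision.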

Additional observations from a re-analysis of the deposited data

Results flagged for a closer look

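Bcl2l11 1435448_at lay below wild type in the knockout at 8 h (193 in KO and 240 in WT, -0.31) and above it at 24 h (344 in KO and 174 in WT, 0.98), a difference of 1.30 on the log2 scale between the times. It stands out because the genotype difference had opposite signs at the 2 times, and the difference between them was not tested, since each group had 1 array. Of 27598 probe sets, 1167 (4.23%) had opposite signs with a difference of 2-fold or more.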

How the results depend on the processing

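No paired analysis was possible because each group had 1 array, and for the same reason no array could be left out. At a 1.5-fold limit, 5 of 24 member probe sets passed between genotypes at 8 h and 5 of 22 at 24 h. Of all probe sets, 13.5% and 23.3% did. Between times, 6 of 22 passed in KO and 5 of 24 in WT, where 26.8% and 27.2% of all did. For the difference of differences 7 of 24 passed, with Apaf1 1450223_at as measured among them, where 22.9% of all did. At a 3-fold limit, the number of members that passed was 0 at 24 h, 1 in KO (Apaf1 1450223_at as measured), 0 in WT and 0 for the difference of differences. The shares of all probe sets were 2.29%, 3.8%, 3.91% and 2.38%. With the floor at the 60th percentile, an intensity of 66, 0 passed at 24 h, where Bid 1448560_at was under the floor, and 1 in KO. Of all probe sets that reached that floor, 9.17% and 13.6% passed. With lower values set to the floor, 1 passed in KO, where 10.1% of all did. With 1 probe set a gene, 0 passed at 24 h, 1 in KO and 0 for the difference of differences. Over all genes read this way, 7.1% passed at 24 h and 12.2% in KO. The share of all genes that passed for the difference of differences was not computed. The member count of 0 there therefore cannot be compared with one, and nothing is concluded from it. In the limma fit of time, 1 member passed with the higher floor and 1 after quantile normalization, and the number of all probe sets called was 1032 and 568 under these, 56 without a trend and 0 with no floor (7221 at an unadjusted p under 0.05), against 133. For genotype, limma called 0 under each of its 4 alternatives, with 2549 to 4122 at an unadjusted p under 0.05. A floor set from the 4 arrays at 8 and 24 h, an intensity of 19 and chosen after seeing the data, moved no member count by over 1.5 times. Median centring turned the sign of 2 Mcl1 probe sets between genotypes at 24 h (0.04 and 0.01, then -0.01 and -0.04), of 1 of Mcl1 between times in KO, and of 1 each of Bcl2 and Mcl1 for the difference of differences, and quantile normalization that of Bad 1416583_at and Bcl2l11 1456005_a_at at 8 h, all within 0.05 of 0.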
